A study of Mus musculus with 4 samples.

Results

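The genes described here are 10 genes of adenosine signalling and purine salvage in mouse macrophages: *Entpd1*, *Adora2a*, *Adora2b*, *Slc29a1*, *Ada*, *Adk*, *Hprt*, *Aprt*, *Pnp* and *Pnp2*. They were named as a list and looked up by gene symbol, and 9 of the 10 had a row of their own among the 52550 gene IDs (52476 gene names) of the deposited table. The list was chosen on measured values of these same libraries, in part because *Ada* was lower in the OGT knockout at both times. The genotype difference of *Ada* is therefore given as a description only.

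The samples were bone marrow-derived macrophages (BMDMs), grown from mouse bone marrow for 7 days with 20 ng/mL of the growth factor M-CSF. Both genotypes were profiled after 24 h of 20 ng/mL IL-4, a cytokine that drives alternative (M2) activation, and at 0 h. OGT adds N-acetylglucosamine sugars to serine and threonine residues of proteins inside the cell. RNA-seq libraries were made from total RNA, 1 library for each of 4 groups: OGT knockout at 24 h, WT at 24 h, OGT knockout at 0 h and WT at 0 h. All 4 libraries carry the same IL-4 label, so the 0 h libraries are taken as the start of the stimulation. The mouse strain and age, the deleted part of *Ogt*, any Cre driver and the number of animals behind a library are details not given in the sources used here.

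Adenosine is a nucleoside that cells release or form at their surface and that quiets many immune cells through G protein-coupled receptors. Surface enzymes strip phosphates from extracellular ATP to give adenosine, which is sensed by its receptors, taken up through nucleoside transporters, deaminated to inosine by adenosine deaminase or returned to AMP by adenosine kinase. Inosine and guanosine are split by purine nucleoside phosphorylase into the free bases hypoxanthine and guanine. The phosphoribosyltransferase encoded by *Hprt* recycles these bases into nucleotides, or they are oxidised towards uric acid. The phosphoribosyltransferase encoded by *Aprt* recycles adenine. In macrophages the receptors encoded by *Adora2a* and *Adora2b* are known to modulate inflammatory and alternative activation.

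Values are FPKM, sequenced fragments scaled by transcript length and by library size, as the authors deposited them. Each group held 1 library, so there is no replicate error, no test was run, and each difference compares 2 libraries and not 2 conditions. Differences are given as log2 ratios of FPKM + 1, which understate the change of low genes. A gene entered a comparison when it reached 1 FPKM in at least 1 of the libraries compared, and a difference of at least 2-fold on this scale is called past the fold. Summed FPKM lay between 338704 and 353093 per library, and 10922 to 11168 genes reached 1 FPKM. *Ogt* itself read 14.5 FPKM in the knockout and 29.8 FPKM in WT at 24 h, and 14.2 FPKM in the knockout and 27.4 FPKM in WT at 0 h. The M2 marker *Retnla* read 14904 FPKM in the knockout and 12961 FPKM in WT at 24 h, against 2.23 FPKM in the knockout and 2.17 FPKM in WT at 0 h. All 6 macrophage markers were detected, and the T cell receptor genes *Cd3d*, *Cd3e*, *Cd3g* and *Trac* stayed under 1 FPKM in every library. In such bulk samples, fewer cells of a type and less RNA per cell cannot be told apart.

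The members covered a wide range of levels on the FPKM scale, which is per length. *Hprt* was the highest of the 9 in every library, at 86.8 to 122.9 FPKM. *Adora2a* stayed under 1 FPKM in all 4 libraries, and *Adk* lay between 1.45 and 1.75 FPKM. In WT at 0 h the order from high to low was *Hprt*, *Entpd1*, *Aprt*, *Ada*, *Slc29a1*, *Pnp2*, *Adk*, *Adora2a* and *Adora2b*. With 1 library per group, neighbours in this order cannot be ranked against a spread, and *Adora2a* and *Adora2b* differed there by little, at 0.510 and 0.490 FPKM. *Ada* stood in the fourth place in WT at 0 h and in the sixth place in the other libraries, and *Pnp2* stood in the third place in the knockout at 0 h and last in the knockout at 24 h.

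**Figure D1:**
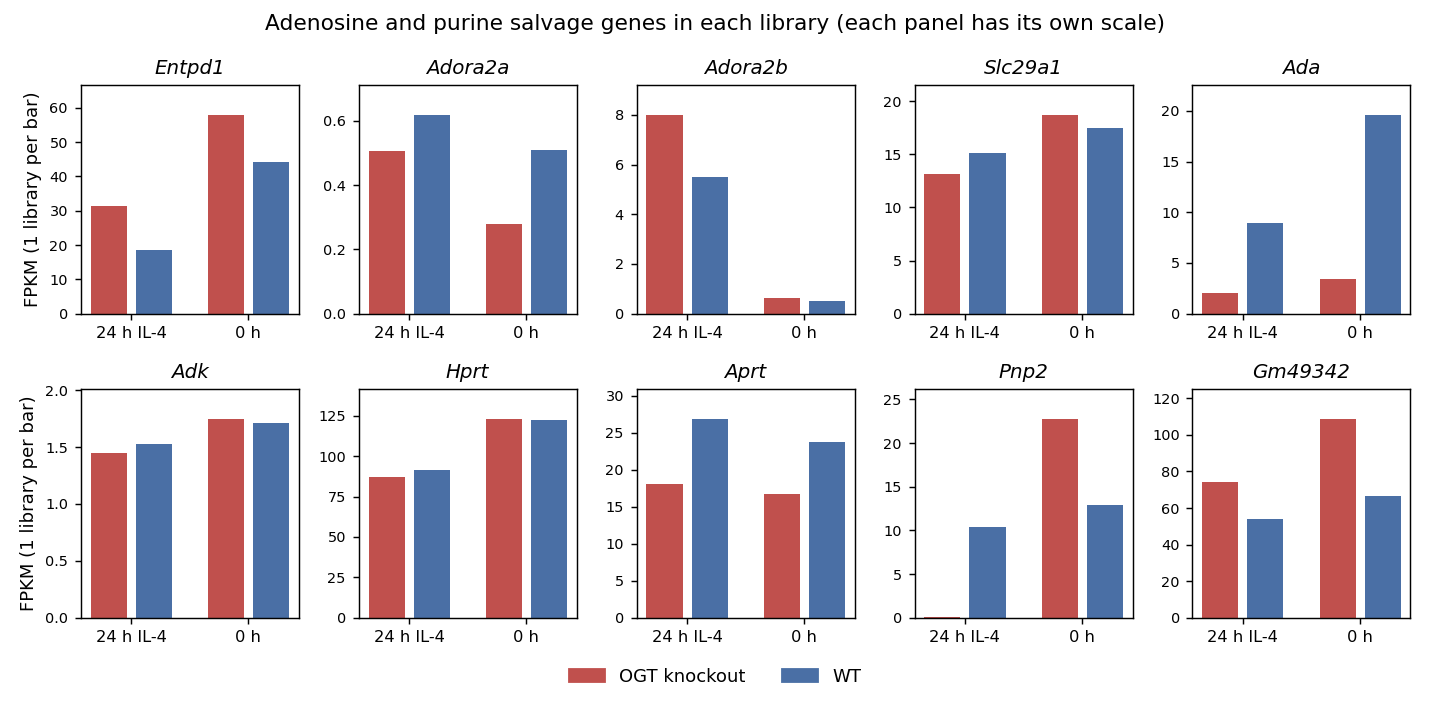
FPKM of each gene in each of the 4 libraries (vertical axes, own scale per panel, all from 0), with the OGT knockout in red and WT in blue, at 24 h of IL-4 and at 0 h; each bar is 1 library, with no error. The *Ada* bars of the knockout (2.08 and 3.42 FPKM) lie below those of WT at both times, *Adora2b* is high at 24 h in both genotypes, and the *Pnp2* bar of the knockout at 24 h (0.152 FPKM) is barely above the axis.

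Few of the members passed the 2-fold line. Between the knockout and WT at 24 h, 0 of the 8 members kept were past the fold upwards, beside 0.832% of all genes kept, and 2 were past it downwards (*Ada* and *Pnp2*), beside 0.619%. At 0 h, 0 of 7 were past the fold upwards, beside 0.88%, and 1 downwards (*Ada*), beside 0.871%. The genotype contrasts were used to choose the list, so nothing is read from these shares. The median difference of the members kept, knockout over WT, was -0.13 at 24 h and 0.02 at 0 h, beside -0.05 over all genes kept at each time.

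In the response to IL-4, 24 h over 0 h, *Adora2b* was past the fold upwards in both genotypes, 1 of 8 members beside 5.16% of genes kept in the knockout and 4.76% in WT. Downwards, 1 of 8 members was past the fold in the knockout (*Pnp2*), beside 5.99% of genes kept. In WT, 2 of 8 were (*Ada* and *Entpd1*), beside 6.26%. The members' median was -0.49 in the knockout and -0.24 in WT, against 0.03 and 0.02 over all genes kept in those genotypes. The 2 responses share no library, and the knockout's response minus that of WT was past the fold upwards for 0 of 8 members, beside 1.27% of genes kept, and downwards for 1 (*Pnp2*), beside 1.16%. With so few members, each of these counts is 1 or 2 genes.

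**Figure D2:**
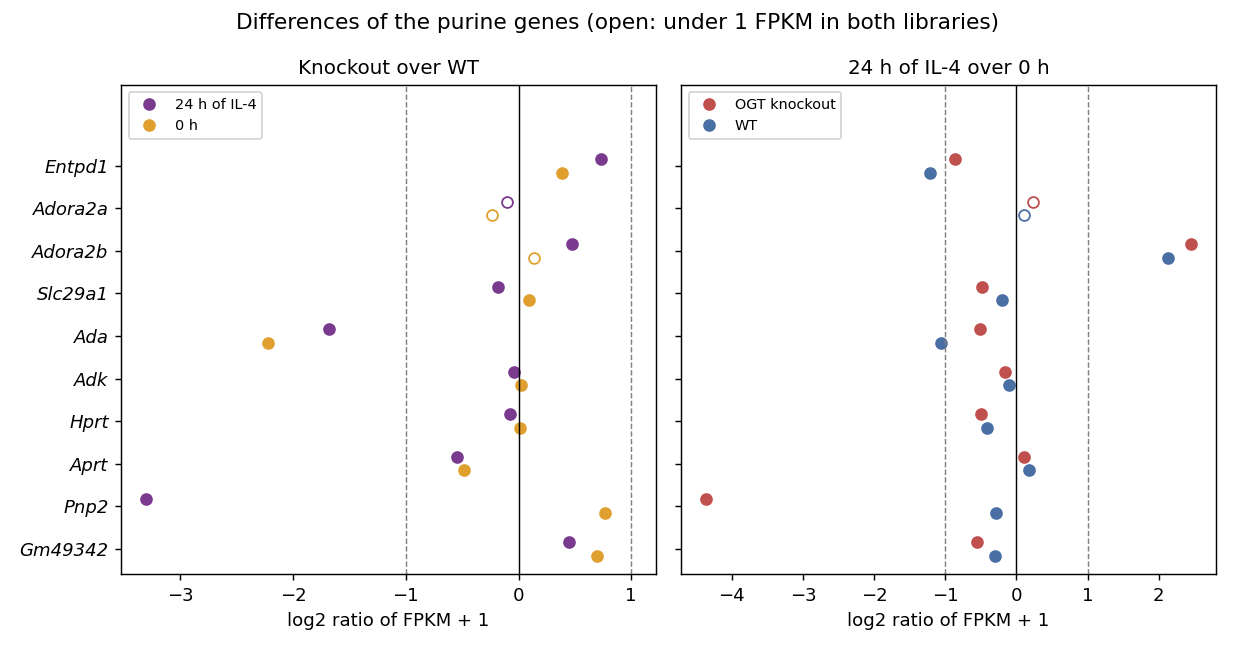
Log2 ratios of FPKM + 1 for each gene (horizontal axes), knockout over WT on the left (24 h in purple, 0 h in yellow) and 24 h of IL-4 over 0 h on the right (knockout in red, WT in blue), with the 2-fold lines dashed and open points for genes under 1 FPKM in both libraries. *Ada* lies left of the line at both times in the genotype panel, at -1.68 and -2.22, and *Adora2b* right of it in both genotypes in the time panel, at 2.45 and 2.12.

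*Entpd1* encodes CD39, the ectoenzyme that removes phosphates from extracellular ATP and ADP, and it was the second highest member in 3 of the libraries. At 24 h it read 31.4 FPKM in the knockout and 18.5 FPKM in WT, and at 0 h 58.0 FPKM in the knockout and 44.1 FPKM in WT. The knockout value was thus 170% of the WT value at 24 h and 132% at 0 h, log2 differences of 0.73 and 0.39 that did not pass the fold. With IL-4, *Entpd1* fell by 1.21 on the log2 scale in WT, and the knockout's difference of -0.86 stayed inside the line. *Nt5e*, which encodes CD73, the enzyme that completes the step from AMP to adenosine, was between 0.0172 and 0.0418 FPKM, under 1 FPKM in all 4 libraries. Of the 10 listed genes of adenosine production outside the cell, 2 to 3 were kept in a comparison, and apart from *Entpd1* none was past the fold between genotypes or between times. *Enpp1*, an ectonucleotidase of a different family, had 1.85 FPKM in the knockout and 1.55 FPKM in WT at 24 h, and 2.86 FPKM in the knockout and 2.68 FPKM in WT at 0 h.

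*Adora2b*, the low-affinity adenosine receptor of macrophages, was the only member that rose past the fold with IL-4. It read 8.004 FPKM at 24 h against 0.643 FPKM at 0 h in the knockout, and 5.49 FPKM at 24 h against 0.490 FPKM at 0 h in WT. The 24 h value was the higher one in each genotype, and the rise was 2.45 on the log2 scale in the knockout and 2.12 in WT. Of the 11577 genes kept in the knockout 68 rose by more, and of the 11687 kept in WT 86 did. At 24 h the knockout was higher than WT by 0.47, within the fold, and at 0 h the gene was under 1 FPKM in both genotypes and was left out of the genotype comparison. The knockout's response exceeded that of WT by 0.33, a difference with no test.

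*Adora2a*, a high-affinity adenosine receptor, read 0.508 FPKM in the knockout and 0.619 FPKM in WT at 24 h, and 0.280 FPKM in the knockout and 0.510 FPKM in WT at 0 h. It lay below *Adora2b* in 3 libraries and just above it in WT at 0 h. Read counts are not analysed here. From the most common small value of single-exon genes, 1 fragment was worth about 0.0458 to 0.0494 FPKM per kilobase of transcript, a rough estimate that puts *Adora2a* at about 14.7 to 33.8 fragments per library. *Adora2b* came to about 299 fragments in the knockout and 213 in WT at 24 h, and 24.0 in the knockout and 19.8 in WT at 0 h. The other receptors were lower still: *Adora1* was listed at 0 in all 4 libraries and *Adora3* did not exceed 0.481 FPKM. Of the 4 adenosine receptors, *Adora2b* alone reached 1 FPKM.

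The promoter of *Adora2b* is shown because this gene alone among the members rose past the fold with IL-4, a cytokine whose signal passes through STAT6. It is the RefSeq window on GRCm38.p6 at chr11:62248734-62249033, + strand, from 250 bases before to 50 bases after the transcript start, 70.0% G and C. No letters are in capitals, since neither of the motifs searched was found.
Adora2b: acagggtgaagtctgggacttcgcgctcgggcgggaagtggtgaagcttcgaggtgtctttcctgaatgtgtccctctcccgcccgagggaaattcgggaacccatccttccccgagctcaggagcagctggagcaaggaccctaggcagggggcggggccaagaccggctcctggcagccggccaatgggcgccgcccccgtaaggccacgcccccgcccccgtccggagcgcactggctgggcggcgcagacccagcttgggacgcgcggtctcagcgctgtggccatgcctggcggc
The motifs were searched on both strands: the STAT6 letters, TTC and GAA with 4 bases of any kind between them, which 2284 of 32851 mouse promoter windows hold (6.95%), and the EGR letters GCGTGGGCG, which 201 hold (0.612%). They were chosen after the values had been seen. The *Adora2b* window holds neither, which says only that these letters are not in it. Of the 17 windows available for 8 members, 1 held the STAT6 letters (*Hprt*) and 2 held the EGR letters (*Ada* and 1 of the 8 windows of *Slc29a1*).

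*Slc29a1* encodes ENT1, the equilibrative nucleoside transporter that carries adenosine across the plasma membrane in either direction. Its values were 13.1 FPKM in the knockout and 15.1 FPKM in WT at 24 h, and 18.7 FPKM in the knockout and 17.5 FPKM in WT at 0 h. None of its differences passed the fold: knockout over WT was -0.19 at 24 h and 0.09 at 0 h, and 24 h over 0 h was -0.48 in the knockout and -0.20 in WT. Its exons overlap *Gm17080* on the other strand, which had at most 0.635 FPKM. Among the 10 listed nucleoside and nucleobase transporters, 7 were kept in the IL-4 comparisons and 1 passed the fold: *Slc28a2*, a concentrative nucleoside transporter, fell by 1.56 in the knockout, to 3.96 FPKM at 24 h against 13.6 FPKM at 0 h. In WT it read 3.91 FPKM at 24 h and 8.02 FPKM at 0 h, a difference of -0.88. *Slc29a3*, an equilibrative transporter of intracellular membranes, had the highest FPKM of the list, 28.7 in the knockout and 23.6 in WT at 24 h, and 40.6 in the knockout and 35.1 in WT at 0 h.

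*Ada* encodes adenosine deaminase, which turns adenosine and deoxyadenosine into inosine and deoxyinosine. At 24 h it read 2.08 FPKM in the knockout and 8.92 FPKM in WT. At 0 h it read 3.42 FPKM in the knockout and 19.6 FPKM in WT. The value was lower in the knockout at each time, which is the difference the list was chosen on. The knockout level was 23.4% of WT at 24 h and 17.4% at 0 h, log2 differences of -1.68 and -2.22. In the ranking of all genes kept, 16 of 11302 had a lower log2 ratio at 24 h and 8 of 11479 at 0 h. By the rough fragment estimate the *Ada* values rested on about 71.2 fragments in the knockout and 316 in WT at 24 h, and about 117 in the knockout and 723 in WT at 0 h.

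With IL-4, *Ada* fell by 1.06 on the log2 scale in WT, the 24 h value being 45.4% of that at 0 h. In the knockout the 24 h value was 61.0% of that at 0 h, and the difference of -0.52 did not pass the fold. The knockout's response minus that of WT was 0.54, with no test. The row is not shared with a neighbour: no exon of a different gene overlaps those of *Ada* at chr2:163726584-163750239 (- strand, 12 exons in the longest transcript). Its promoter is shown because *Ada* has the genotype difference for which the list was drawn up. The window is chr2:163750190-163750489, - strand, 68.0% G and C, from RefSeq on GRCm38.p6, and the capitals mark the EGR letters, which start at base 252 of 300, next to the transcript start.
Ada: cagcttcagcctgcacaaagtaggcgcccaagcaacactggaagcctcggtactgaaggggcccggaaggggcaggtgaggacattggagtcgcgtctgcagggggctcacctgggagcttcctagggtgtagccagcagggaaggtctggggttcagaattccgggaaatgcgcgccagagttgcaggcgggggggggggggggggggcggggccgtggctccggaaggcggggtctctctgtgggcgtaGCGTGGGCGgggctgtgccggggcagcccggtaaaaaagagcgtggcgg
The match is a description of the sequence and says nothing of a factor bound there.

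The summed markers of several cell types that a marrow culture can hold were also lower in the knockout, though not every marker was. The 4 mast cell and basophil markers summed to 0.655 FPKM in the knockout and 4.26 FPKM in WT at 24 h, and to 1.11 FPKM in the knockout and 6.06 FPKM in WT at 0 h, with *Fcer1a* and *Cpa3* under 1 FPKM in every library. The 4 platelet and megakaryocyte markers summed to 28.6 FPKM in the knockout and 48.5 FPKM in WT at 24 h, and to 47.2 FPKM in the knockout and 99.3 FPKM in WT at 0 h, with *Gp1bb* under 1 FPKM in every library. *Pf4* and *Ppbp* made up 97.4% to 98.2% of that sum, and *Gp1bb* had the higher value in the knockout at both times. The 7 neutrophil markers summed to 569 FPKM in the knockout and 885 FPKM in WT at 24 h, and to 1563 FPKM in the knockout and 2559 FPKM in WT at 0 h, with *Ly6g* under 1 FPKM in every library. *S100a8* and *S100a9* made up 89.8% to 97.3% of the neutrophil sum, 4 of the 7 markers were lower in the knockout at both times, and *Csf3r* had the higher value in the knockout at both, 48.9 FPKM against 45.0 FPKM in WT at 24 h and 59.4 FPKM against 45.2 FPKM in WT at 0 h. All 5 T cell markers were under 1 FPKM in every library and summed to 0.0523 FPKM in the knockout and 0.417 FPKM in WT at 24 h, and to 0 FPKM in the knockout and 1.14 FPKM in WT at 0 h. The 4 B cell markers summed to 3.06 FPKM in the knockout and 4.86 FPKM in WT at 24 h, and to 9.39 FPKM in the knockout and 13.9 FPKM in WT at 0 h, with *Cd79a* and *Ms4a1* under 1 FPKM in every library; *Cd79b* carried nearly all of it. The 4 monocyte markers summed to 17.4 FPKM in the knockout and 25.2 FPKM in WT at 24 h, and to 33.2 FPKM in the knockout and 42.4 FPKM in WT at 0 h, with 2 of the 4 lower in the knockout at both times. The monocyte marker *Ccr2* read 9.36 FPKM in the knockout and 16.02 FPKM in WT at 24 h, and 16.3 FPKM in the knockout and 14.3 FPKM in WT at 0 h. The 4 fibroblast markers summed to 3.92 FPKM in the knockout and 5.62 FPKM in WT at 24 h, and to 6.21 FPKM in the knockout and 11.1 FPKM in WT at 0 h, and all 4 were lower in the knockout at both times. These sums move with *Ada* between genotypes, and their part in its difference was not tested. The 5 dendritic cell markers, of which *Itgax* alone reached 1 FPKM, summed to 354 FPKM in the knockout and 356 FPKM in WT at 24 h, and to 15.9 FPKM in the knockout and 35.7 FPKM in WT at 0 h. The macrophage markers summed to 6306 FPKM in the knockout and 6247 FPKM in WT at 24 h, and to 15309 FPKM in the knockout and 18351 FPKM in WT at 0 h.

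The genes with the profile nearest to that of *Ada* were found among 6662 protein-coding genes that reached 5 FPKM in a library, by the Euclidean distance between mean-centred log2 values of the 4 libraries. The nearest was *Ppbp*, a platelet chemokine gene and itself in the platelet list, at a distance of 0.596. It read 2.50 FPKM in the knockout and 6.97 FPKM in WT at 24 h, and 4.47 FPKM in the knockout and 14.9 FPKM in WT at 0 h. *Rpl29*, a ribosomal protein gene, and *Rbbp9*, a hydrolase gene, followed at 0.998 each. *Mgea5*, which encodes the hydrolase that takes the OGT sugar off proteins, lay at 1.01, with 10.6 FPKM in the knockout and 23.4 FPKM in WT at 24 h, and 14.9 FPKM in the knockout and 31.4 FPKM in WT at 0 h. *Tspyl3* was the fifth, at 1.04. Because they were picked for likeness to *Ada*, the sign of their genotype difference follows from the choice. Their values are a description, with log2 differences between -1.21 and -0.73 at 24 h and between -1.54 and -0.92 at 0 h, smaller than the difference of *Ada* itself. The distances rest on 4 libraries only.

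*Adk* and *Hprt* differed little between genotypes, and *Aprt* differed more. *Adk* encodes adenosine kinase, which returns adenosine to AMP. It read 1.45 FPKM in the knockout and 1.52 FPKM in WT at 24 h, and 1.75 FPKM in the knockout and 1.71 FPKM in WT at 0 h, and its 4 pairwise log2 differences lay between -0.16 and 0.02. *Hprt* encodes the enzyme that salvages hypoxanthine and guanine. It read 86.8 FPKM in the knockout and 91.3 FPKM in WT at 24 h, and 122.9 FPKM in the knockout and 122.0 FPKM in WT at 0 h. Its genotype differences were -0.07 at 24 h and 0.01 at 0 h, and 24 h over 0 h gave -0.50 in the knockout and -0.42 in WT.

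*Aprt*, whose product salvages adenine, had the lower value in the knockout at both times without passing the fold. It read 18.0 FPKM in the knockout and 26.9 FPKM in WT at 24 h, and 16.7 FPKM in the knockout and 23.7 FPKM in WT at 0 h. The knockout stood at 67.1% of the WT level at 24 h and 70.4% at 0 h, log2 differences of -0.55 and -0.48. With IL-4 its log2 differences were 0.11 in the knockout and 0.17 in WT. The other listed salvage genes included *Dck*, which phosphorylates deoxynucleosides, at 16.5 FPKM in the knockout and 16.8 FPKM in WT at 24 h, and 21.9 FPKM in the knockout and 19.4 FPKM in WT at 0 h. None of the 7 genes of the salvage list was past the fold between genotypes, and 1, *Ahcy*, was past it with IL-4. *Ahcy* encodes the enzyme that splits S-adenosylhomocysteine into adenosine and homocysteine, a step that yields adenosine and is not itself salvage. It rose by 1.31 in the knockout, to 16.05 FPKM, and by 1.43 in WT, to 17.04 FPKM.

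*Pnp* and *Pnp2* encode purine nucleoside phosphorylase, and their longest transcripts lie side by side on chromosome 14. The whole M21 gene span of *Pnp*, chr14:50931082-50965237, encloses that of *Pnp2*, though no exons of the copies overlap. Over exons 2 to 5, 641 bases could be aligned without gaps and 5 differed, so that the copies were 99.2% identical there, with an unbroken identical run of 292 bases. Exon 4 differed at 0 of 176 bases. Exons 1 and 6 have unlike lengths in the copies and were not compared. They hold 237 and 494 of the 1372 bases of *Pnp2*. Exon 3 is printed because it shows how little differs between the copies in exons 2 to 5, and because the last exon of a read-through gene ends inside it. The sequences are from GENCODE M21 transcripts on GRCm38, at chr14:50950258-50950361 for *Pnp* and chr14:50963105-50963208 for *Pnp2*, both + strand, and the capitals mark the 2 bases of 104 that differ.
Pnp: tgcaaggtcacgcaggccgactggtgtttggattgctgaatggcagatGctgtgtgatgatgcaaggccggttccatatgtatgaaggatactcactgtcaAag
Pnp2: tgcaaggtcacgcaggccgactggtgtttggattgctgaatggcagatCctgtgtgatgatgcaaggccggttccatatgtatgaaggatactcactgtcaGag
A fragment that lies within an identical run could come from either copy, so the split of reads between them is uncertain.

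*Pnp* had no row under its GENCODE M21 identifier, ENSMUSG00000115338, which is higher than any mouse gene identifier in the deposited table. The locus is represented by ENSMUSG00000021871, which M21 names *Gm49342*, a read-through gene whose longest transcript has 750 bases, 718 of them in exons of *Pnp* and 32 in exon 3 of *Pnp2*. Those 32 bases differ at 0 positions from exon 3 of either copy. Which transcripts the authors' annotation placed under this identifier is a detail not given in the sources used here, so the values are given as those of *Gm49342* and not as those of *Pnp*. *Gm49342* read 74.0 FPKM in the knockout and 53.9 FPKM in WT at 24 h, and 108.7 FPKM in the knockout and 66.6 FPKM in WT at 0 h. The knockout stood at 137% of WT at 24 h and 163% at 0 h. The log2 differences of 0.45 and 0.70 stayed within the fold. With IL-4 its differences were -0.55 in the knockout and -0.30 in WT.

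**Figure D3:**
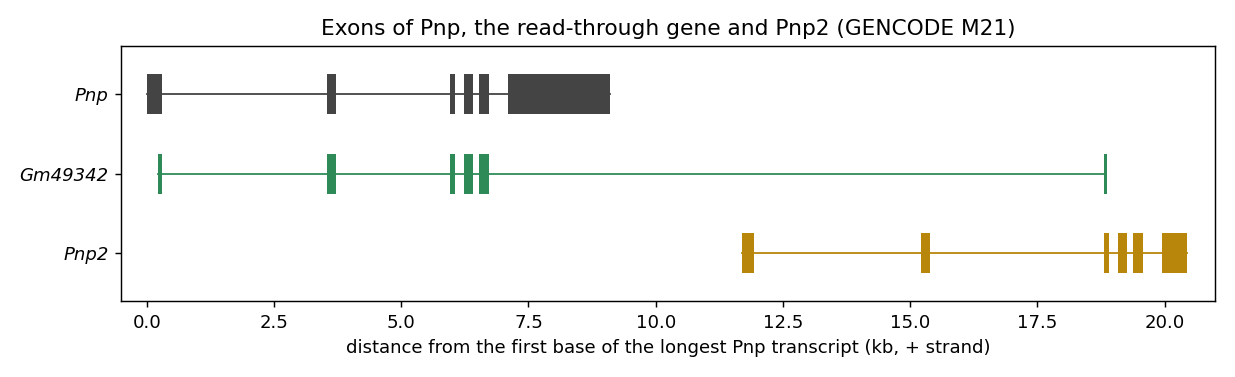
Exons (boxes) of *Pnp*, the read-through gene *Gm49342* and *Pnp2* in their longest GENCODE M21 transcripts, by distance in kilobases from the first base of the *Pnp* transcript. The first exons of *Gm49342* fall on exons of *Pnp*, and its last exon, 32 bases long, falls on exon 3 of *Pnp2*.

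*Pnp2* set 1 library apart. In the knockout it read 0.152 FPKM at 24 h against 22.8 FPKM at 0 h, and in WT 10.4 FPKM at 24 h against 12.9 FPKM at 0 h. The knockout at 24 h was therefore far below the other 3 libraries, at 1.46% of WT at the same time, and the knockout at 0 h was the highest of the 4, at 176% of WT. On the log2 scale, the difference between knockout and WT was -3.31 at 24 h and 0.77 at 0 h, and with IL-4 *Pnp2* fell by 4.37 in the knockout and differed by -0.29 in WT. The knockout's response minus that of WT was -4.08, and 3 of 12000 genes had a lower value. The rough estimate gives about 4.23 fragments for *Pnp2* in the knockout at 24 h and 301 in WT at 24 h, and 632 in the knockout and 388 in WT at 0 h.

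The value of *Pnp2* was also read beside that of *Gm49342*, whose longest transcript shares exons 2 to 5 with *Pnp*. Summed over *Gm49342* and *Pnp2*, the locus read 74.2 FPKM in the knockout and 64.4 FPKM in WT at 24 h, and 131.4 FPKM in the knockout and 79.5 FPKM in WT at 0 h. On the sum, which is approximate because FPKM is per length, the difference between knockout and WT at 24 h was 0.20, of the opposite sign to that of *Pnp2* alone. The response to IL-4 of the sum was -0.82 in the knockout and -0.30 in WT. *Pnp2* made up 0.205% of the sum in the knockout and 16.2% in WT at 24 h, and 17.3% in the knockout and 16.3% in WT at 0 h. The share thus stood between 16.2% and 17.3% in 3 libraries and near 0 in 1 library. Whether reads were assigned differently in that library was not tested, since only summarised values are analysed here.

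The wider purine pathway was described by 9 lists with 88 genes, 87 of them with a row, of which 78 are not among the 10. Of these 78, 54 were kept in each genotype comparison and 0 passed the fold at 24 h or at 0 h, beside the shares of all genes given above. The median difference, knockout over WT, was -0.07 at 24 h and -0.03 at 0 h. At 24 h 37 of the 54 had a negative sign and 17 a positive one, and at 0 h 28 and 26. The median over all genes kept was itself -0.05 at each time. Signs were not counted over all genes, so nothing is read from these sign counts. In the IL-4 response 10 of 54 rose and 6 fell in the knockout, beside 5.16% and 5.99% of all genes kept, and 10 of 57 rose and 5 fell in WT, beside 4.76% and 6.26%. The counts for single lists are read against these same shares. All 10 that rose were the same genes in both genotypes, and 4 of those that fell were shared, 66.7% of the knockout's and 80.0% of WT's. The same overlap was not counted over all genes kept, so nothing particular to purine genes is read from it.

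In purine synthesis from small precursors, 3 of 18 genes in both genotypes rose with IL-4 and 0 fell, and the list's median was 0.45 in the knockout and 0.62 in WT. *Prps1*, which makes the phosphoribosyl pyrophosphate that both synthesis and salvage consume, read 27.8 FPKM at 24 h against 4.604 FPKM at 0 h in the knockout, and 35.2 FPKM at 24 h against 5.56 FPKM at 0 h in WT. *Atic*, which completes the ring of IMP, read 15.95 FPKM at 24 h against 3.12 FPKM at 0 h in the knockout, and 17.2 FPKM at 24 h against 4.69 FPKM at 0 h in WT. *Adsl*, an enzyme of both IMP and AMP synthesis, rose by 1.08 in the knockout and by 1.12 in WT. *Adssl1*, an adenylosuccinate synthase, had the highest FPKM of the list, 41.3 in the knockout and 43.3 in WT at 24 h, and 31.7 in the knockout and 28.3 in WT at 0 h. Among the nucleotide kinases, which turn monophosphates and diphosphates into higher phosphates, 3 of 6 kept rose in the knockout and 3 of 7 in WT, with medians of 0.90 in the knockout and 0.72 in WT. *Nme1* rose by 1.42 in the knockout and 1.31 in WT, and *Nme2* by 1.16 in the knockout and 1.22 in WT. *Nme1* and *Nme2* are similar neighbours that share the read-through gene *Gm20390*, which was listed at 0 in all 4 libraries.

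Breakdown genes moved in both directions with IL-4. *Gda*, which deaminates guanine to xanthine, rose by 3.07 on the log2 scale in the knockout and by 2.71 in WT. It read 51.5 FPKM at 24 h against 5.27 FPKM at 0 h in the knockout, and 45.1 FPKM at 24 h against 6.06 FPKM at 0 h in WT. *Ampd2*, an AMP deaminase, rose by 1.18 in the knockout and by 1.35 in WT, and its relative *Ampd3* fell, with differences of -1.44 in the knockout and -1.38 in WT. Their levels crossed: at 24 h *Ampd2* read 9.57 FPKM in the knockout and 10.4 FPKM in WT, and *Ampd3* 1.79 FPKM in the knockout and 2.74 FPKM in WT, whereas at 0 h *Ampd2* read 3.67 FPKM in the knockout and 3.49 FPKM in WT, and *Ampd3* 6.58 FPKM in the knockout and 8.73 FPKM in WT. Exons of *Ampd3* overlap those of 3 genes, the highest being *Rnf141* on the other strand. *Rnf141* read 3.18 FPKM in the knockout and 3.87 FPKM in WT at 24 h. At 0 h it read 2.78 FPKM in the knockout and 4.46 FPKM in WT. Strand use is not stated, and the part of this overlap in the *Ampd3* values was not tested. *Nt5c3*, placed in this list, encodes a nucleotidase that acts mainly on pyrimidine nucleotides. It fell by 1.08 in the knockout, and its difference of -0.64 in WT stayed within the fold. *Xdh*, which makes uric acid, had the highest FPKM of the breakdown list in all 4 libraries, 65.9 in the knockout and 80.5 in WT at 24 h, and 69.6 in the knockout and 72.7 in WT at 0 h.

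**Figure D4:**
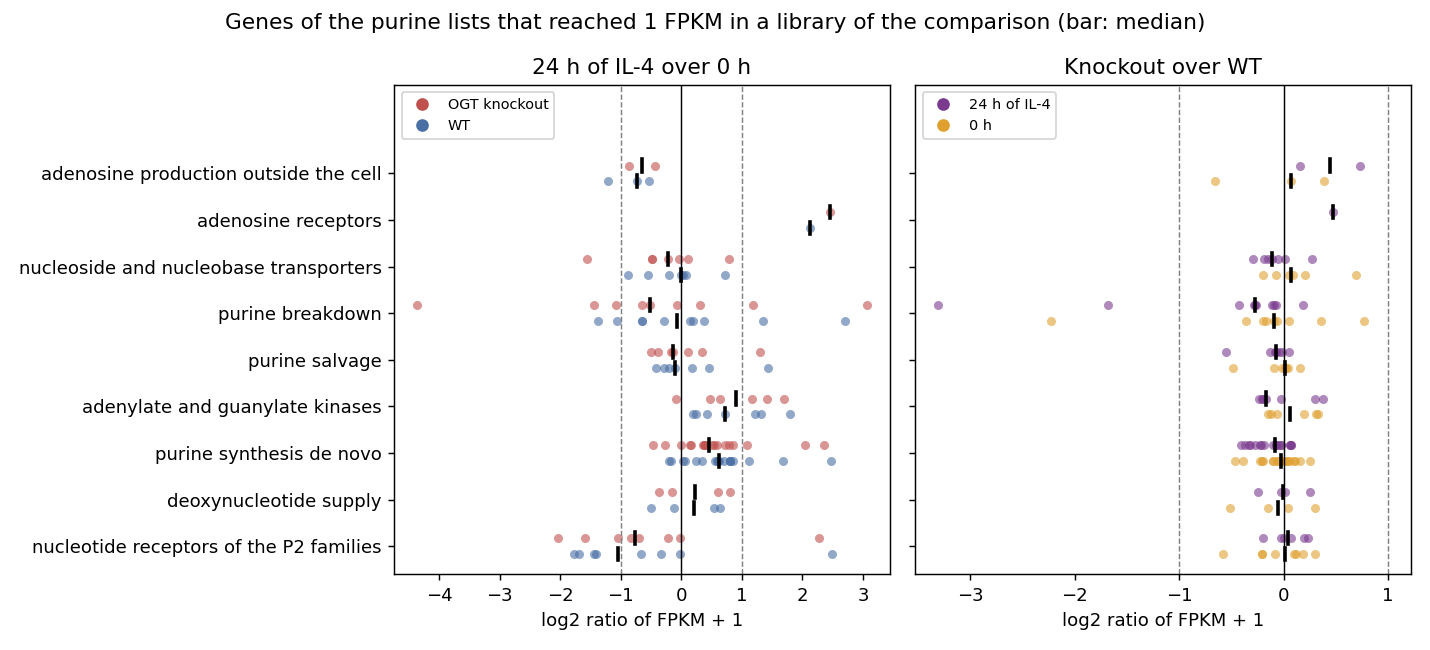
Log2 ratios of FPKM + 1 (horizontal axes) of the genes of the 9 purine lists that reached 1 FPKM in a library of the comparison, 24 h of IL-4 over 0 h on the left (knockout in red, WT in blue) and knockout over WT on the right (24 h in purple, 0 h in yellow), with the list's median as a bar and the 2-fold lines dashed. The genotype panel has 3 points beyond the lines, *Ada* at both times and *Pnp2* at 24 h, and the time panel has points beyond them in most lists.

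The P2 receptors, which sense extracellular nucleotides such as ATP, ADP and UDP, mostly had lower values at 24 h. Of 8 kept, 1 rose and 3 fell in the knockout and 1 rose and 4 fell in WT, with medians of -0.77 in the knockout and -1.04 in WT. *P2ry1*, an ADP receptor, read 14.2 FPKM at 24 h against 2.13 FPKM at 0 h in the knockout, and 14.5 FPKM at 24 h against 1.74 FPKM at 0 h in WT. The other ADP receptors of macrophages, named here after their values were seen, fell: *P2ry12* differed by -1.60 in the knockout and -1.77 in WT, and *P2ry13* by -2.03 in the knockout and -1.69 in WT. *P2ry2*, a receptor for ATP and UTP and likewise named after its values were seen, fell by 1.04 in the knockout, and its WT difference was -1.44. *P2rx7*, the ATP-gated channel linked to inflammasome activation, fell by 1.42 in WT, to 12.5 FPKM at 24 h against 35.1 FPKM at 0 h, and the knockout read 12.6 FPKM at 24 h and 23.2 FPKM at 0 h, a difference of -0.84. *P2ry6*, a UDP receptor, had the highest FPKM of the list, 65.0 in the knockout and 74.8 in WT at 24 h, and 66.1 in the knockout and 76.2 in WT at 0 h. In the list of deoxynucleotide supply 0 of 4 genes passed the fold in any comparison, and its highest was *Samhd1*, which degrades deoxynucleotides, at 98.5 FPKM in the knockout and 82.3 FPKM in WT at 24 h, and 110.0 FPKM in the knockout and 89.2 FPKM in WT at 0 h.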

How the data were processed

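The measurements are FPKM values per gene from 4 RNA-seq libraries of mouse BMDMs, 1 per group, which the authors deposited as 1 table. Reads were aligned with STAR and summarised with StringTie on GRCm38 (mm10), per the submitters' processing notes; versions, filters, strand use and depth are details not given in the sources used here, and FPKM removes depth. GENCODE M21 named 52403 of the 52550 gene IDs, and FPKM of IDs with 1 name were summed. All columns of values were used.

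Differences are log2(FPKM + 1) ratios of 2 libraries, among genes at 1 FPKM or more in either, computed in Python 3.11.15 with pandas 2.3.3 and NumPy 2.4.6 and checked on simulated data. With 1 library per group no test was run. The 10 genes, the 9 purine lists and the marker lists were chosen with earlier results of these data known. Named are the 10 genes in every library; purine genes past 2-fold in a pairwise comparison that reached 5 FPKM, and up to 2 of the highest FPKM per list; the 5 genes nearest *Ada*; and *Ogt*, *Retnla* and *Arg1* as checks of the labels. *Arg1* read 219 FPKM in the knockout and 240.4 FPKM in WT at 24 h. Alternatives were pseudocounts of 0.1 and 5, filters of 0 and 5 FPKM, 2 rescalings of the libraries and, for *Pnp2*, the sum with *Gm49342*. Promoters are RefSeq windows on GRCm38.p6. A few genes that these rules would name are not reported here.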

Additional observations from a re-analysis of the deposited data

Results flagged for a closer look

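For 4 of the members the genotype difference had opposite signs at 24 h and at 0 h, lower in the knockout at 24 h and higher at 0 h. In *Pnp2* the 24 h difference minus the 0 h difference was -4.08 on the log2 scale, from -3.31 at 24 h and 0.77 at 0 h. In *Slc29a1* it was -0.28, in *Hprt* -0.083 and in *Adk* -0.062, all small beside the 2-fold line. None of these differences was tested, since each rests on 1 library per group. No member had IL-4 responses of opposite sign in the knockout and in WT.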

How the results depend on the processing

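The number of genes past the fold depended on the pseudocount and the filter. Over all genes kept, knockout over WT at 24 h gave 164 genes, against 388 with a pseudocount of 0.1, 39 with a pseudocount of 5 and 93 with a filter at 5 FPKM. At 0 h it gave 201, against 438, 43 and 106 under those settings. The IL-4 response gave 1290 in the knockout, against 2031 with a pseudocount of 0.1 and 592 with a pseudocount of 5, and 1288 in WT, against 1971 and 557. The difference of responses gave 291, against 662, 72 and, with the filter at 5 FPKM, 141. With a pseudocount of 5 the members past the fold were 1 in place of 2 for knockout over WT at 24 h and 1 in place of 3 for the WT response, because *Ada* came to -0.97 and -0.82 in them and *Adora2b* to 0.93 in the WT response. In all 9 lists together, with the members, that pseudocount left 10 of 18 genes in each IL-4 response and 1 of 2 for knockout over WT at 24 h, and a pseudocount of 0.1 gave 2 in place of 1 at 0 h. Summed with *Gm49342*, *Pnp2* turned to 0.20 for knockout over WT at 24 h, and its response in the knockout (-0.82) and the difference of responses (-0.52) no longer passed the fold. The other values of the members and *Gm49342* kept their sign and their side of the 2-fold line under every alternative run, and rescaling moved the median of all genes by at most 0.054. No paired analysis was possible because each group held 1 library with no replicate number, and for the same reason no library could be left out. Depth is unknown, and values under 1 FPKM, such as *Pnp2* in the knockout at 24 h (about 4.23 fragments by the rough estimate), *Adora2a* in every library and *Adora2b* at 0 h, rest on few fragments.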
